A study of Felis catus with 25 samples.

Results

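Genes of integrin and laminin chains were followed in fibroblasts cultured from the cornea of the cat (Felis catus). They were taken as every gene of the count tables whose symbol starts with ITGA, ITGB, LAMA, LAMB or LAMC followed by a digit or letter, without ITGBL1 and the ITGB1BP genes. That choice found 35 of the 13949 genes in the tables. ITGB3BP was among them but encodes a centromere protein, so it was set aside, and 34 chain genes remained, 22 of integrins and 12 of laminins. Enough reads for a test were found for 27 of them. The other 7 (ITGA7, ITGA9, ITGAL, ITGB6, ITGB7, LAMA1 and LAMB4) are given by their counts. The integrin chains ITGB3, ITGAM, ITGAX and ITGAD were not analysed here.

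Polyadenylated RNA was sequenced from 25 libraries, 5 in each of 5 groups. FB were untreated fibroblasts of day 0, called quiescent in the labels. TGFb were fibroblasts after 2 days with transforming growth factor beta 1 (TGFb1) at 1 ng/ml, a treatment that turns corneal fibroblasts into contractile myofibroblasts. In the other groups the same TGFb1 treatment was ended at day 2 and a drug was given until day 5: troglitazone at 7.5 uM, a ligand of the nuclear receptor PPAR-gamma (Trog), troglitazone at 7.5 uM with the PPAR-gamma antagonist GW9662 at 10 uM (TrogGW), or UK-5099 at 30 uM, an inhibitor of the mitochondrial pyruvate carrier (UK). All cells were grown on dishes coated with collagen, itself a ligand of several of these integrins. No group at day 2 without TGFb1 and none at day 5 without a drug was analysed here, so the effect of an agent and that of time in culture cannot be told apart. The doses of troglitazone and UK-5099 differ. Libraries of a group are labelled as biological replicates, with no word on whether cultures or animals were separate, so the p-values reflect how far these libraries differ from each other and no more.

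An integrin is a receptor made of an alpha and a beta chain. Its outer part holds a protein of the matrix and its inner tail is tied through adaptor proteins to actin, and the pairing of the chains decides which matrix protein is bound. A laminin is a cross-shaped trimer of an alpha, a beta and a gamma chain, and laminins form the sheet on which a basement membrane is built. In the cornea such membranes lie under the epithelium and beneath the innermost layer of cells, while stromal fibroblasts hold on to collagen and fibronectin through integrins, and integrins with the alphaV chain can free TGFb1 from its latent complex.

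Levels are in CPM, counts relative to the library total after its scaling by the TMM factor of edgeR, which corrects for differences in composition between libraries. Changes are log2 fold changes ± SE (standard error) between 2 groups of 5 libraries, and a chain is said to rise or fall where edgeR's quasi-likelihood test gave an adjusted p under 0.05 (Benjamini-Hochberg, over 10699 tested genes). Values of a group are listed from replicate 1 to replicate 5, and ± after a level is the SD (n = 5). Levels of different genes are not compared, because transcript lengths were not used here. In RNA from whole cultures, fewer cells of a type and less RNA per cell cannot be told apart.

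The libraries held 14.8 to 25.2 M counts. UK replicate 5 stood apart from its group: its log2 CPM correlated across genes with the other UK libraries at 0.852 to 0.868, and every other pair within a group at 0.988 or more. Of the 27 tested chains, it lay below all the other UK libraries for 19, above them for 2 and among them for 6. The same count was not made over all tested genes, so these numbers describe the library and not a trait of the chains. Changes of named chains in UK are therefore given with and without it. The fibroblast markers DCN, LUM, PDGFRA, PDGFRB, COL1A1 and COL1A2 were detected in all groups, THY1 was at most 0.807 CPM in any library and VIM was not analysed here. The summed fibroblast list (7 of 8 genes in the tables) lay at 65939 to 80396 CPM in FB, 91871 to 110834 in TGFb, 2993 to 4776 in Trog, 1250.1 to 2895 in TrogGW and 88450.2 to 130374 in UK. COL1A1 and COL1A2 made up most of that sum, with medians of 62777 and 37323 CPM in TGFb and 1159 and 1342 in Trog. Other listed genes did not all follow. Medians in TGFb, Trog and TrogGW were 576, 562 and 217 CPM for DCN and 105, 383 and 185 for PDGFRB. They were 144, 88.4 and 208 for PDGFRA and 834, 227 and 62.1 for LUM. The corneal epithelial keratins KRT3 and KRT12 and the immune markers PTPRC, TYROBP and AIF1 had 0 counts in all groups. Other markers on these lists were detected. EPCAM had medians of 9.33 CPM in FB, 5.37 in TGFb, 1.57 in Trog and 2.65 in TrogGW. PAX6 had 2 counts in TGFb, 57 in Trog and 271 in TrogGW, and DSP had 17, 14 and 98. CD68 was at 9.31 CPM or more in every library, and TP63, CD3E and LYZ at 0.245 or less. CSF1R and CD14 are given with ITGB2 below. Whether cells of these types were present was not tested. In the RefSeq annotation of the cat some chain genes overlap another coding gene, ITGA1 with PELO, ITGA4 with CERKL, ITGA7 with METTL7B, ITGAE with NCBP3, HASPIN and P2RX5, ITGB4 with GALK1, LAMA1 with ARHGAP28, LAMA4 with FAM229B and LAMB3 with G0S2, and ITGAL, ITGB5 and ITGB6 each with a coding gene that has no name there. Others, among them ITGA11, ITGAV and ITGB1, overlap a long noncoding RNA. The strand setting of the counting was not given in the sources used here, so the levels of these chains may hold reads of the other gene and are uncertain to that extent.

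**Figure D1:**
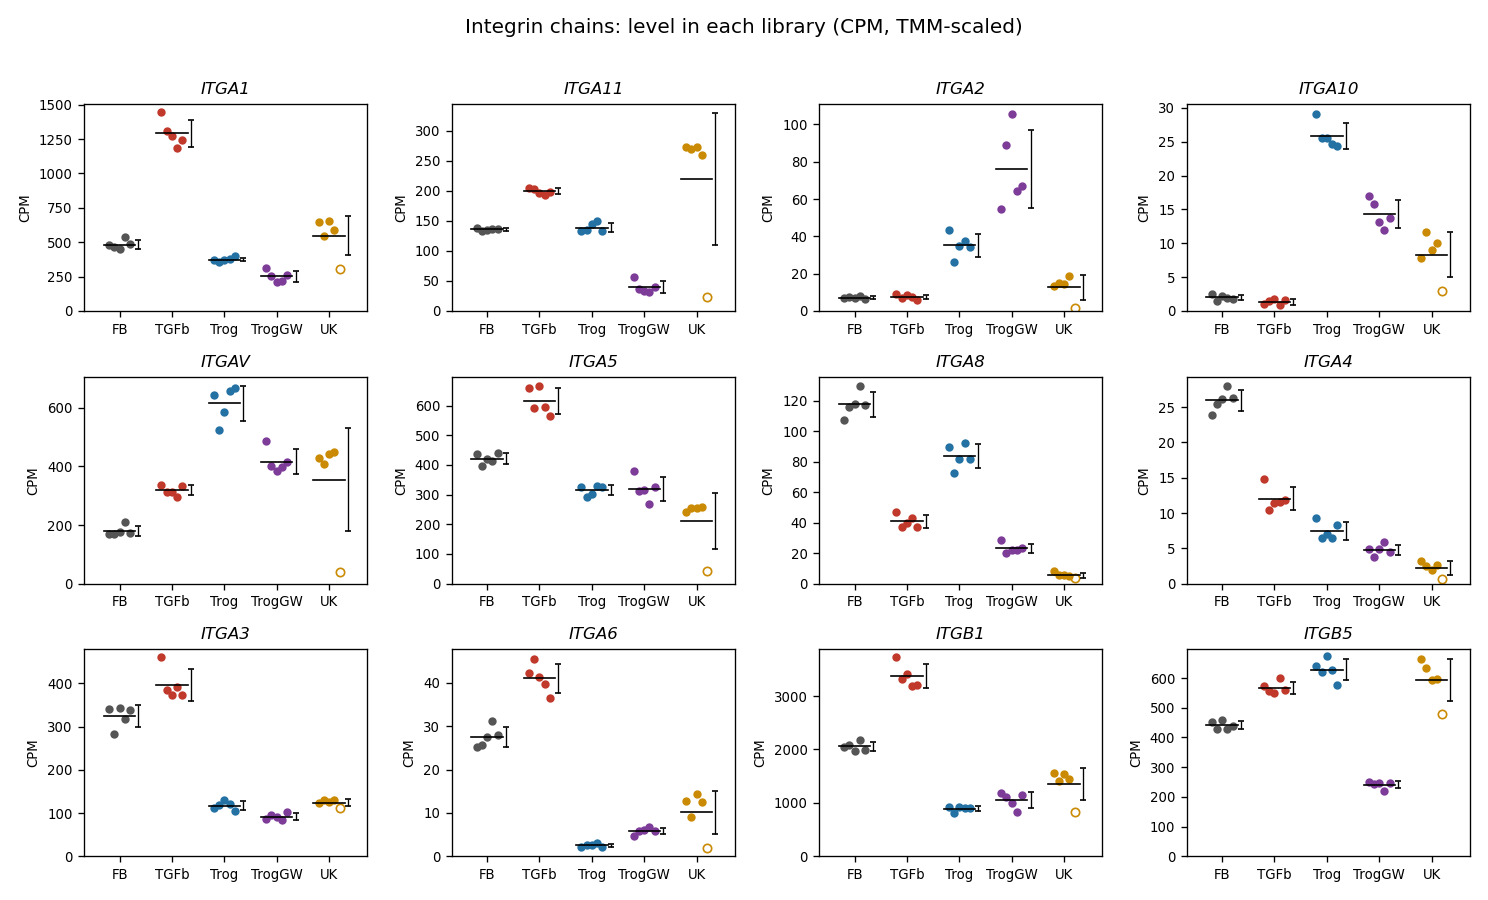
Level in CPM (linear y axis from 0) of 12 integrin chains in each library of the 5 groups (x axis). Points are libraries, the open circle is UK replicate 5, the line is the mean of 5 libraries and the bar its SD. ITGA11 sits at 132 to 137 CPM in FB, at 194 to 205 in TGFb and at 32 to 57.2 in TrogGW, with UK replicate 5 at 23.4 far below the other UK libraries.

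Of the integrin alpha chains that bind collagen, ITGA1 and ITGA11 were higher in TGFb than in FB. ITGA2 and ITGA10 were higher in Trog than in TGFb. ITGA11, the alpha chain of a receptor for fibrillar collagen found on mesenchymal cells, was at 137, 132, 135, 137 and 136 CPM in FB, 205, 203, 196, 194 and 198 in TGFb, 134, 135, 144, 149 and 132 in Trog, 57.2, 36, 32.5, 32 and 40.0 in TrogGW, and 273, 269, 273, 259 and 23.4 in UK. The FB and Trog libraries overlapped, TGFb lay above both, TrogGW lay below all of them, and UK held the 4 highest values and the lowest. ITGA11 rose in TGFb over FB (0.56 ± 0.0414, edgeR adjusted p = 8.81e-12), a call that was lost in a fit of all 25 libraries (adjusted p = 0.207). In Trog it stood -0.52 ± 0.0475 against TGFb (edgeR adjusted p = 9.07e-10), a direction that turned to 0.16 (adjusted p = 0.00388) with library totals alone, and the call was lost in the fit of all 25 libraries (-0.52, adjusted p = 0.183). Its difference from FB did not pass the test in Trog (0.03 ± 0.0459, edgeR adjusted p = 0.492), and it did with library totals alone (0.34, adjusted p = 6.89e-07). Addition of GW9662 to troglitazone lowered it further (-1.81 ± 0.124, edgeR adjusted p = 5.9e-09). In UK against TGFb it did not pass with all 5 libraries (0.14 ± 0.485, edgeR adjusted p = 0.863) and was higher without UK replicate 5 (0.43 ± 0.0486, adjusted p = 1.7e-07).

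ITGA1, whose receptor binds collagens with a preference for type IV, was the integrin alpha chain with the largest rise in TGFb. It was at 477, 462, 451, 538 and 486 CPM in FB, 1443, 1309.7, 1275, 1186 and 1242 in TGFb, 369.5, 359, 370.4, 375 and 396 in Trog, 309.7, 256, 211, 219 and 258 in TrogGW, and 648, 548, 655, 588 and 304 in UK. All TGFb libraries lay above all others, and TrogGW held the lowest group mean. ITGA1 rose in TGFb over FB (1.42 ± 0.0565, edgeR adjusted p = 3.12e-17) and fell from there in Trog (-1.79 ± 0.0594, edgeR adjusted p = 1.11e-17), in TrogGW (-2.36 ± 0.0978, edgeR adjusted p = 3.05e-13) and in UK (-1.24 ± 0.195, edgeR adjusted p = 0.000784, and -1.08 ± 0.0709, adjusted p = 5.25e-11 without UK replicate 5). It was lower in TrogGW than in Trog (-0.58 ± 0.0862, edgeR adjusted p = 2.32e-05), and both lay below FB (-0.37 ± 0.0525 and -0.94 ± 0.0892), the former with a call that was lost with library totals alone (-0.06, adjusted p = 0.285). The call of UK against Trog (0.55 ± 0.19, edgeR adjusted p = 0.0382) was lost without any 1 of the 5 Trog libraries or of UK replicates 1 to 4, and with library totals alone (0.12, adjusted p = 0.677), and held at 0.70 ± 0.0644, adjusted p = 1.68e-08 without UK replicate 5.

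ITGA2 and ITGA10, the alpha chains of further collagen receptors, went the other way. ITGA2 was at 6.88, 7.42, 7.18, 8.11 and 6.32 CPM in FB, 8.87, 6.73, 8.36, 7.31 and 6.09 in TGFb, 43.4, 26.3, 34.9, 37.4 and 34.4 in Trog, 54.6, 88.8, 106, 64 and 66.9 in TrogGW, and 13.6, 15.2, 14.7, 18.7 and 1.43 in UK. FB and TGFb overlapped at low values, Trog lay above both and TrogGW above Trog. It rose in Trog over TGFb (2.23 ± 0.118, edgeR adjusted p = 5.45e-14), more in TrogGW over TGFb (3.34 ± 0.171, edgeR adjusted p = 5.35e-12), and it was higher in TrogGW than in Trog (1.11 ± 0.159, edgeR adjusted p = 1.5e-05). UK replicates 1 to 4 lay above every TGFb library and UK replicate 5 below, and the rise of UK over TGFb passed only without that library (1.06 ± 0.116, adjusted p = 1.03e-07). UK was below Trog (-1.46 ± 0.477, edgeR adjusted p = 0.0302), a call that was lost without any 1 of the Trog libraries except replicate 2 or without UK replicate 1 or 3, and held without UK replicate 5 (-1.18 ± 0.121, adjusted p = 8.18e-08).

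ITGA10, best known from cartilage, was at 2.51, 1.41, 2.25, 1.97 and 1.81 CPM in FB, 0.972, 1.41, 1.75, 0.896 and 1.68 in TGFb, 29.1, 25.6, 25.6, 24.6 and 24.4 in Trog, 17, 15.7, 13.2, 11.9 and 13.8 in TrogGW, and 7.86, 11.6, 9.03, 10.1 and 2.96 in UK. FB and TGFb were the lowest groups and overlapped, and no Trog library overlapped with TrogGW or UK. ITGA10 rose in Trog over TGFb by the largest amount of any integrin chain (4.24 ± 0.123, edgeR adjusted p = 9.97e-19), and in TrogGW (3.39 ± 0.161, edgeR adjusted p = 1.93e-12) and UK (2.63 ± 0.358, edgeR adjusted p = 0.000296, and 2.83 ± 0.174, adjusted p = 2.05e-11 without UK replicate 5). Unlike ITGA2 it was lower with GW9662 than without (-0.85 ± 0.0902, edgeR adjusted p = 6.21e-07). Like ITGA2 it was lower in UK than in Trog (-1.63 ± 0.29, edgeR adjusted p = 0.00115, and -1.42 ± 0.1 without UK replicate 5). Its small fall in TGFb from FB (-0.54 ± 0.212, edgeR adjusted p = 0.0263), with overlapping libraries, was lost in each of 4 fits without 1 library, FB replicate 1 or 3 or TGFb replicate 1 or 4.

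Among the alpha chains that bind the RGD sequence of fibronectin, vitronectin and other proteins, ITGAV was highest with troglitazone and ITGA8 was lowest with UK-5099. ITGAV, the alphaV chain, was at 168, 168, 177, 209 and 172 CPM in FB, 337, 314, 313, 296 and 332 in TGFb, 642, 525, 587, 656 and 666 in Trog, 488, 402, 383, 397 and 413 in TrogGW, and 427, 408, 444, 450.2 and 40.8 in UK. The groups FB, TGFb, TrogGW and Trog followed each other without overlap, UK replicates 1 to 4 lay among the values of TrogGW, and UK replicate 5 was the lowest library of all. ITGAV rose in TGFb over FB (0.83 ± 0.0559, edgeR adjusted p = 1.16e-12) and again in Trog over TGFb (0.95 ± 0.0634, edgeR adjusted p = 3.87e-12), and was lower with GW9662 than with troglitazone alone (-0.56 ± 0.0801, edgeR adjusted p = 1.43e-05). In UK against TGFb it did not pass (0.15 ± 0.475, edgeR adjusted p = 0.843), and it did without UK replicate 5 (0.44 ± 0.0554, adjusted p = 6.99e-07).

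ITGA8, whose receptor binds fibronectin and nephronectin, was at 107, 116, 118, 129.6 and 118 CPM in FB, 47.3, 37.3, 39.9, 43.3 and 37.3 in TGFb, 89.9, 72.5, 81.5, 92.1 and 81.9 in Trog, 28.5, 20.2, 21.9, 22.1 and 23.2 in TrogGW, and 8.08, 5.43, 5.37, 5.03 and 3.67 in UK. No 2 groups overlapped, and the order from high to low was FB, Trog, TGFb, TrogGW and UK. ITGA8 fell in TGFb (-1.52 ± 0.0631, edgeR adjusted p = 7.17e-17) and rose from there in Trog (1.03 ± 0.0713, edgeR adjusted p = 7.72e-12). With GW9662 it was lower than with troglitazone alone (-1.85 ± 0.0871, edgeR adjusted p = 1.13e-10), and UK lay below TGFb (-2.89 ± 0.201, edgeR adjusted p = 3.81e-06) and Trog (-3.92 ± 0.208, edgeR adjusted p = 6.17e-07). Without UK replicate 5 the last values were -2.79 ± 0.116 and -3.81 ± 0.116. In TrogGW against TGFb it was -0.82 ± 0.0886, which turned to 0.04 (adjusted p = 0.66) with library totals alone.

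ITGA5, the alpha chain of the main fibronectin receptor, averaged 422 ± 17.5 CPM in FB, 616 ± 44.5 in TGFb, 316 ± 16.9 in Trog, 320.0 ± 39.8 in TrogGW and 209.9 ± 94.5 in UK. It rose in TGFb over FB (0.55 ± 0.0507, edgeR adjusted p = 5.79e-10) and fell from TGFb in Trog (-0.96 ± 0.0577, edgeR adjusted p = 5.13e-13) and in UK (-1.55 ± 0.398, edgeR adjusted p = 0.0128). UK replicate 5 had 41.3 CPM of it and the other UK libraries 240.1 to 258, and without that library the fall in UK was -1.29 ± 0.0614. ITGA2B, the alpha chain of the platelet fibrinogen receptor, stayed between 0.182 and 1.94 CPM in every library. It was higher in Trog (1.57 ± 0.296) and TrogGW (2.33 ± 0.283) than in TGFb.

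The tested alpha chains of laminin receptors were lower in every group treated with a drug than in TGFb. ITGA6, which pairs with ITGB1 or with ITGB4 of the hemidesmosome, was at 25.3, 25.8, 27.6, 31.1 and 27.9 CPM in FB, 42.3, 45.6, 41.4, 39.7 and 36.5 in TGFb, 2.19, 2.62, 2.61, 3.06 and 2.08 in Trog, 4.76, 5.83, 6.03, 6.72 and 5.92 in TrogGW, and 12.8, 9.18, 14.3, 12.5 and 1.97 in UK. TGFb lay above FB, and all drug-treated libraries lay below FB, with Trog lowest apart from UK replicate 5. ITGA6 rose in TGFb over FB (0.57 ± 0.0667, edgeR adjusted p = 3.35e-08) and fell in Trog from TGFb by the largest amount of any tested chain (-4.02 ± 0.0944, edgeR adjusted p = 2.97e-20). Its fall was smaller in TrogGW (-2.81 ± 0.0861, edgeR adjusted p = 6.33e-15), so that it was higher with GW9662 than without (1.21 ± 0.132, edgeR adjusted p = 8.39e-07). In UK it fell from TGFb (-2.01 ± 0.399, edgeR adjusted p = 0.00314, and -1.75 ± 0.0989, adjusted p = 5.3e-12 without UK replicate 5).

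ITGA3, a receptor chain for epithelial and widely expressed laminins, averaged 324 ± 25.4 CPM in FB, 396 ± 36.3 in TGFb, 117 ± 9.54 in Trog, 91.9 ± 7.22 in TrogGW and 124 ± 8.25 in UK. It fell from TGFb in Trog (-1.75 ± 0.0656, edgeR adjusted p = 9.19e-17), TrogGW (-2.11 ± 0.0702, edgeR adjusted p = 1.72e-14) and UK (-1.68 ± 0.103, edgeR adjusted p = 1.7e-06, and -1.64 ± 0.0655 without UK replicate 5). In TGFb against FB it was 0.29 ± 0.0595, which turned to -0.08 (adjusted p = 0.156) with library totals alone. ITGA3 was among the chains on which UK replicate 5 differed little from its group, at 111 CPM beside 124 to 131. ITGA7, the laminin receptor chain of muscle, was at most 0.305 CPM in any library and was not tested.

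ITGA4, a receptor chain for fibronectin and the endothelial protein VCAM1, was highest in FB. It was at 23.9, 25.5, 26.2, 27.9 and 26.2 CPM in FB, 14.8, 10.4, 11.5, 11.6 and 11.9 in TGFb, 9.33, 6.4, 6.97, 6.52 and 8.28 in Trog, 4.84, 3.84, 4.92, 5.89 and 4.45 in TrogGW, and 3.19, 2.47, 1.96, 2.68 and 0.627 in UK. The groups descended from FB over TGFb, Trog and TrogGW to UK, without overlap between neighbours. ITGA4 fell in TGFb from FB (-1.11 ± 0.0805, edgeR adjusted p = 5.12e-12), in Trog from TGFb (-0.69 ± 0.113, edgeR adjusted p = 8.31e-06) and in TrogGW from Trog (-0.64 ± 0.134, edgeR adjusted p = 0.000517). The call of Trog against TGFb was lost with library totals alone (adjusted p = 0.993). UK lay below TGFb (-2.43 ± 0.317, edgeR adjusted p = 0.000221) and Trog (-1.75 ± 0.317, edgeR adjusted p = 0.0013), and without UK replicate 5 these were -2.22 ± 0.14 and -1.54 ± 0.159. ITGA9, a close relative that binds tenascin C, was at most 0.343 CPM and not tested. Its 5 libraries held 21 counts in FB and 1 in TrogGW, a ratio of 28.4 with a 95% counting interval of 4.57 to 1175, which covers counting error only.

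Integrin alpha chains of leukocytes were low. ITGAE, which pairs with ITGB7 on lymphocytes of epithelia, averaged 5.41 ± 0.199 CPM in FB and 5.58 ± 0.699 in TGFb, and was higher in TrogGW than in Trog (0.53 ± 0.108, edgeR adjusted p = 0.000397). UK replicate 5 had 16.5 CPM of ITGAE beside 5.72 to 7.58 in the other UK libraries. ITGAL, the alpha chain of the lymphocyte receptor LFA-1, had 34 counts in TrogGW, 2 in FB, 1 in TGFb and 0 in Trog. Against Trog that was at least 10.5-fold higher, with 3 counts over the group as the floor. ITGB2, the beta chain that leukocyte integrins share, averaged 0.215 ± 0.12 CPM in FB, 0.0706 ± 0.0749 in TGFb, 1.07 ± 0.244 in Trog and 1.18 ± 0.239 in TrogGW, a rise from TGFb in Trog (3.72 ± 0.456, edgeR adjusted p = 1.16e-07) and TrogGW (3.87 ± 0.441, edgeR adjusted p = 2.73e-07). All 8 genes of the immune marker list were in the tables. Their summed level was 19.7 to 27.9 CPM in TGFb, 31.5 to 38.4 in Trog and 24.6 to 28.4 in TrogGW. PTPRC, TYROBP and AIF1 were at 0 in each. CD68 made up most of the sum, with medians of 22.9, 25.4 and 20.6 CPM in TGFb, Trog and TrogGW. Like ITGB2, other members were higher with troglitazone. CSF1R had 12 counts in TGFb, 713 in Trog and 581 in TrogGW. Medians of CD14 were 0.789, 3.24 and 2.21 CPM. Which cells gave these reads was not tested.

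Among the beta chains, ITGB1, the partner of all the alpha chains that bind collagen, was at 2054, 2093, 1964, 2187 and 1982 CPM in FB, 3729, 3314, 3421, 3180.0 and 3201 in TGFb, 920.3, 817, 920.1, 907 and 899 in Trog, 1180.3, 1108, 1007, 824 and 1145 in TrogGW, and 1559, 1403, 1540.5, 1452 and 826 in UK. All TGFb libraries lay above all FB libraries, and every library of the drug-treated groups lay below FB. ITGB1 rose in TGFb over FB (0.71 ± 0.053, edgeR adjusted p = 8.65e-12) and fell from there in Trog (-1.92 ± 0.0647, edgeR adjusted p = 1.47e-17), TrogGW (-1.68 ± 0.101, edgeR adjusted p = 4.91e-11) and UK (-1.31 ± 0.174, edgeR adjusted p = 0.000241, and -1.18 ± 0.0687, adjusted p = 8.73e-12 without UK replicate 5).
Its level in TrogGW was above Trog by 0.24 ± 0.0869 (edgeR adjusted p = 0.0234), a call that was lost in each of 3 fits without 1 library, TrogGW replicate 2 or 5 or Trog replicate 2.

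ITGB5, a partner of ITGAV that binds vitronectin, averaged 441 ± 12.9 CPM in FB, 567 ± 20.0 in TGFb, 628 ± 35.6 in Trog, 241 ± 12 in TrogGW and 594 ± 69.7 in UK. GW9662 lowered it to below every other group: it was -1.38 ± 0.0596, edgeR adjusted p = 4.69e-11 in TrogGW against Trog and -1.23 ± 0.0544, edgeR adjusted p = 7.09e-13 against TGFb. In TGFb against FB it was 0.36 ± 0.0436, which turned to -0.01 (adjusted p = 0.821) with library totals alone. ITGB8, a partner of ITGAV that activates latent TGFb1, was at 3.59, 5.4, 4.19, 6.56 and 4.67 CPM in FB, 4.74, 4.46, 6.05, 3.96 and 3.54 in TGFb, 10.1, 8.37, 9.17, 10.5 and 10.9 in Trog, 11.8, 13.1, 15.6, 11.4 and 13.9 in TrogGW, and 8.14, 5.97, 7.22, 10.7 and 2.69 in UK. FB and TGFb overlapped, and all Trog and TrogGW libraries lay above both. ITGB8 rose in Trog (1.09 ± 0.123, edgeR adjusted p = 2.96e-08) and TrogGW (1.52 ± 0.13, edgeR adjusted p = 6.18e-09) over TGFb, and it was higher in TrogGW than in Trog (0.43 ± 0.0996, edgeR adjusted p = 0.00131). ITGB4, the beta chain of the hemidesmosome, stayed between 0.972 and 2.88 CPM in every library and was higher in Trog (0.66 ± 0.171) and TrogGW (0.93 ± 0.179) than in TGFb. ITGB6, an epithelial partner of ITGAV, had 37 counts in TrogGW and 2 in Trog, a ratio of 17.2 with a 95% counting interval of 4.44 to 147, which covers counting error only. ITGB7 was at most 0.154 CPM in any library.

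**Figure D2:**
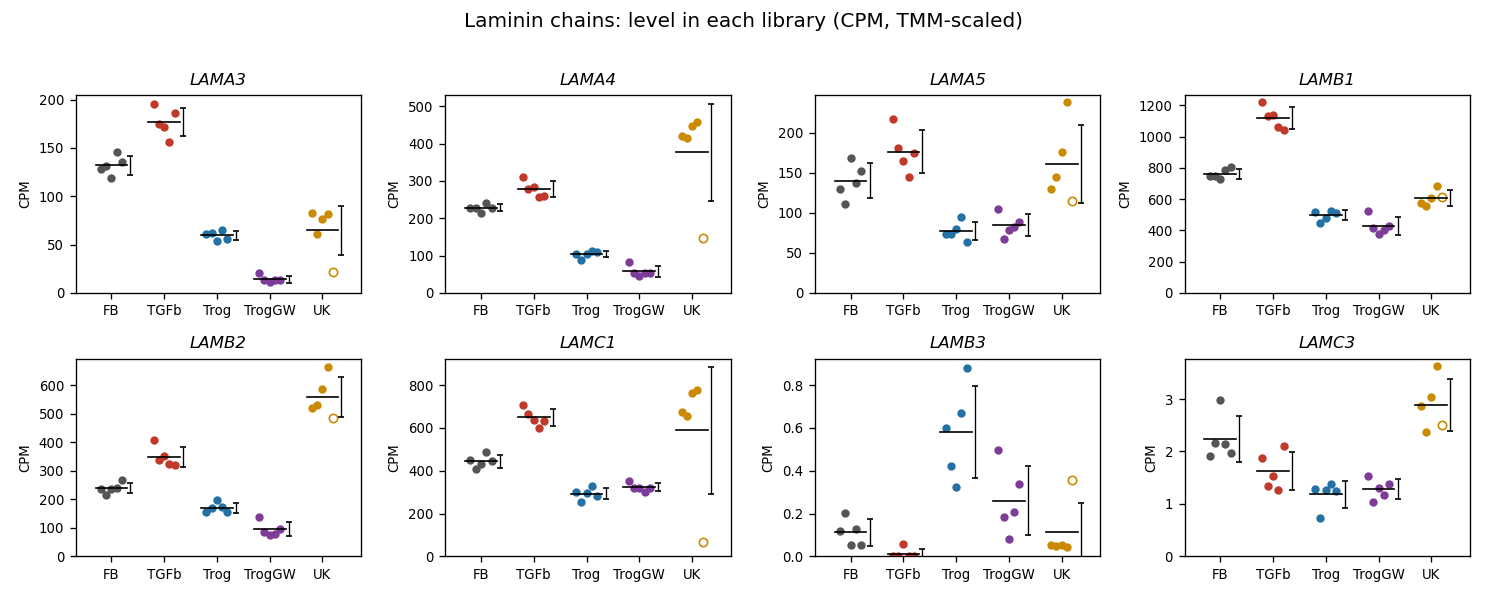
Level in CPM (linear y axis from 0) of 8 laminin chains in each library of the 5 groups (x axis). Points are libraries, the open circle is UK replicate 5, the line is the mean of 5 libraries and the bar its SD. LAMA3 sits at 11.5 to 20.5 CPM in TrogGW, and LAMB2 at 484 to 665 in UK, above the 321 to 407 of TGFb.

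LAMA3, LAMA4 and LAMA5 were lower with troglitazone than with TGFb1, and the addition of GW9662 lowered LAMA3 and LAMA4 further. LAMA3, the alpha chain of the epithelial laminin that anchors hemidesmosomes, was at 128, 131, 119, 146 and 136 CPM in FB, 195, 175, 172, 156 and 186 in TGFb, 61.4, 62.2, 53.5, 65.2 and 55.5 in Trog, 20.5, 13, 11.5, 13.3 and 12.9 in TrogGW, and 82.5, 61, 76.2, 81.9 and 22 in UK. TGFb lay above FB, the other groups lay below FB, and TrogGW was below Trog without overlap. In TGFb against FB it rose (0.42 ± 0.0581, edgeR adjusted p = 5.4e-07), a call that was lost with library totals alone (0.05, adjusted p = 0.463). LAMA3 fell from TGFb in Trog (-1.57 ± 0.063, edgeR adjusted p = 3.38e-16), in TrogGW (-3.63 ± 0.118, edgeR adjusted p = 1.22e-14) and in UK (-1.45 ± 0.302, edgeR adjusted p = 0.00416, and -1.23 ± 0.081, adjusted p = 5.71e-11 without UK replicate 5). The difference between TrogGW and Trog was -2.06 ± 0.121, edgeR adjusted p = 1.18e-09.

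LAMB3, a beta chain of epithelial laminin, was near the limit of detection, at most 0.879 CPM in any library. It had 70 counts in Trog and 1 in TGFb, a ratio of 45.9 with a 95% counting interval of 7.96 to 1837. That interval covers counting error only and not the spread between libraries.

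LAMA4, an alpha chain of vascular and mesenchymal basement membranes, was at 228, 227, 214, 242 and 228 CPM in FB, 309.9, 278, 284, 257 and 260.3 in TGFb, 105, 89, 105, 113 and 108 in Trog, 83, 52.1, 45.3, 53.6 and 53.3 in TrogGW, and 420.4, 414, 446, 458 and 146 in UK. The 4 highest libraries of all were UK replicates 1 to 4, and TrogGW lay below Trog without overlap. LAMA4 fell from TGFb in Trog (-1.42 ± 0.0634, edgeR adjusted p = 2.53e-15) and in TrogGW (-2.27 ± 0.121, edgeR adjusted p = 9.62e-12), and it was lower with GW9662 than without (-0.86 ± 0.125, edgeR adjusted p = 1.74e-05). UK was above Trog (1.86 ± 0.274, edgeR adjusted p = 0.000342, and 2.06 ± 0.0681, adjusted p = 1.76e-14 without UK replicate 5). UK replicate 5, at 146 CPM, lay below all FB and TGFb libraries, and the rise over TGFb passed only without it (0.65 ± 0.0607, adjusted p = 1.2e-08). The rise of UK over FB was called with all libraries (0.73 ± 0.262, edgeR adjusted p = 0.0486) but was lost when any 1 of the 5 FB libraries or of UK replicates 1 to 4 was left out and with library totals alone (0.61, adjusted p = 0.127), and stood at 0.93 ± 0.0532, adjusted p = 7.2e-12 without UK replicate 5. In TGFb against FB it was 0.29 ± 0.0509, which turned to -0.09 (adjusted p = 0.0929) with library totals alone.

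LAMA5, an alpha chain of most mature basement membranes, was at 129.8, 111, 168, 138 and 153 CPM in FB, 217, 181, 165, 145 and 175 in TGFb, 73.3, 73.2, 80.3, 94.8 and 63.8 in Trog, 105, 67.6, 78.7, 82.8 and 88.1 in TrogGW, and 129.7, 145, 176, 238 and 114 in UK. Trog and TrogGW overlapped with each other and lay below FB, TGFb and UK. LAMA5 fell from TGFb in Trog (-1.20 ± 0.0929, edgeR adjusted p = 5.82e-11) and TrogGW (-1.07 ± 0.106, edgeR adjusted p = 4.92e-08), and UK was above Trog (1.06 ± 0.205, edgeR adjusted p = 0.00193, and 1.16 ± 0.137, adjusted p = 5.02e-07 without UK replicate 5). In TGFb against FB it was 0.34 ± 0.0892, with overlapping libraries, and turned to -0.04 (adjusted p = 0.651) with library totals alone. LAMA2, the alpha chain of muscle laminin, averaged 0.408 ± 0.152 CPM in TGFb and 1.49 ± 0.133 in Trog (1.84 ± 0.25, edgeR adjusted p = 5.74e-07), and it was lower in TrogGW than in Trog (-1.84 ± 0.249, edgeR adjusted p = 8.32e-06). LAMA1, the alpha chain of the embryo, was at most 0.248 CPM in any library.

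Among the laminin beta and gamma chains, LAMB2 was highest with UK-5099. LAMB2, the beta chain of laminins at synapses and in the kidney filter, was at 238, 216, 237, 242 and 269 CPM in FB, 407, 338, 351, 326 and 321 in TGFb, 157, 169, 196, 174 and 155 in Trog, 138, 87.1, 75.8, 78.9 and 94.6 in TrogGW, and 521, 532, 587, 665 and 484 in UK. All 5 UK libraries, replicate 5 included, lay above all other libraries, and TrogGW lay below Trog without overlap. LAMB2 rose in TGFb over FB (0.54 ± 0.0606, edgeR adjusted p = 2.09e-08), fell from TGFb in Trog (-1.03 ± 0.0691, edgeR adjusted p = 3.83e-12) and TrogGW (-1.88 ± 0.129, edgeR adjusted p = 3.1e-10), and was lower with GW9662 than without (-0.84 ± 0.13, edgeR adjusted p = 3.2e-05). UK was above TGFb (0.68 ± 0.119, edgeR adjusted p = 0.00151) and Trog (1.71 ± 0.123, edgeR adjusted p = 2.75e-06), and without UK replicate 5 these were 0.73 ± 0.0775 and 1.76 ± 0.0816.

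LAMB1, the widespread beta chain, averaged 763 ± 32.5 CPM in FB, 1120.3 ± 71.6 in TGFb, 497 ± 32.8 in Trog, 429 ± 57.7 in TrogGW and 607 ± 51.2 in UK. It rose in TGFb over FB (0.55 ± 0.0501, edgeR adjusted p = 3.54e-10) and fell from there in Trog (-1.17 ± 0.0606, edgeR adjusted p = 3.64e-14), TrogGW (-1.38 ± 0.0856, edgeR adjusted p = 7.14e-11) and UK (-0.88 ± 0.101, edgeR adjusted p = 9.4e-05, and -0.89 ± 0.0704 without UK replicate 5). In UK, LAMB1 did not follow LAMB2: the former was below TGFb and the latter above. LAMC1, the gamma chain of most laminins, averaged 444 ± 29.5 CPM in FB, 649 ± 40.7 in TGFb, 293 ± 26.5 in Trog, 323 ± 18.2 in TrogGW and 588 ± 296 in UK. It rose in TGFb over FB (0.55 ± 0.0525, edgeR adjusted p = 1.07e-09) and fell in Trog (-1.15 ± 0.0633, edgeR adjusted p = 1.16e-13) and TrogGW (-1.01 ± 0.0615, edgeR adjusted p = 5.93e-11) from TGFb. UK replicate 5 had 68.1 CPM of LAMC1 beside 655 to 780 in the other UK libraries, and in UK against TGFb it did not pass with that library (-0.14 ± 0.477, edgeR adjusted p = 0.856) or without it (0.15 ± 0.0659, adjusted p = 0.0547). LAMC3 averaged 2.24 ± 0.432 CPM in FB, 1.63 ± 0.36 in TGFb and 2.88 ± 0.497 in UK, and was higher in UK than in TGFb (0.82 ± 0.194, edgeR adjusted p = 0.00832, and 0.87 ± 0.19 without UK replicate 5). LAMB4 had counts in FB only, at 0.0858 CPM in 1 library.

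**Figure D3:**
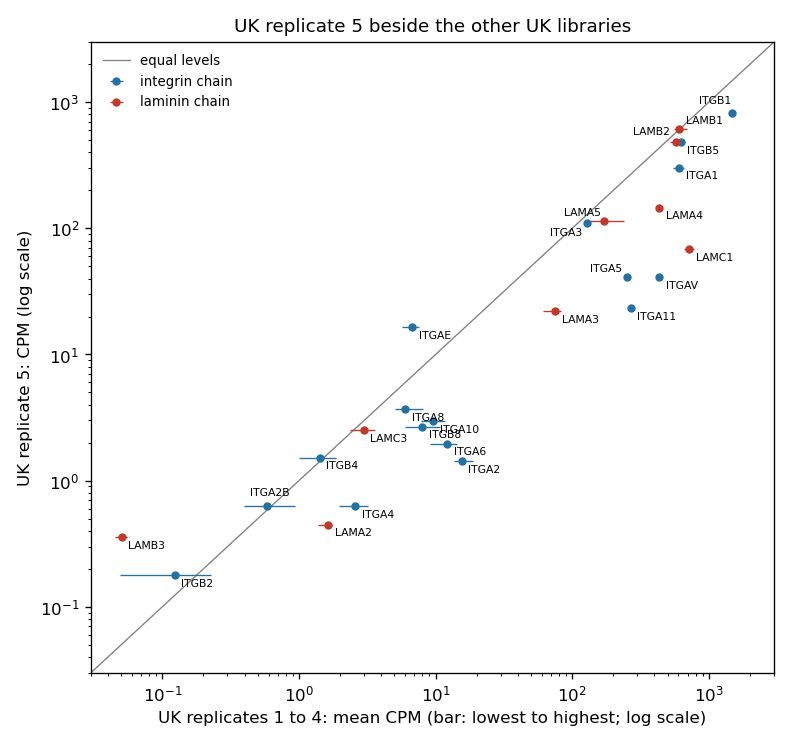
CPM of 26 tested chains in UK replicate 5 (y axis, log scale) against the mean of UK replicates 1 to 4 (x axis, log scale), with bars from the lowest to the highest of those 4 and a line of equal levels. Integrin chains are blue and laminin chains red. Most points lie under the line, among them ITGA11 (23.4 against 259 to 273) and LAMC1 (68.1 against 655 to 780), with ITGAE and LAMB3 above it.

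The chains on which UK replicate 5 was farthest from its group were ITGA11, ITGA2, ITGAV and LAMC1, while LAMB1, LAMB2, ITGB5 and ITGA3 lay near the line of equal levels. The same library held less of the fibroblast markers PDGFRA (28.8 CPM, others 265 to 342) and PDGFRB (28.6, others 191 to 258) and more LUM (6573, others 2798 to 3046). The summed fibroblast list was 88450.2 CPM there and 109322 to 130374 in the other UK libraries, and the vascular endothelial list 37.7 and 153 to 186. Most of the latter was ERG (33.6 and 141 to 171), followed by KDR (2.69 and 11.6 to 14.2). PECAM1, CDH5, TEK, TIE1 and EMCN were at most 0.272 CPM in any UK library, and VWF was at 1.25 and 0.395 to 1.04. The part of these differences in the results on UK was not tested, and the values without the library stand beside the changes of named chains in UK.

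**Figure D4:**
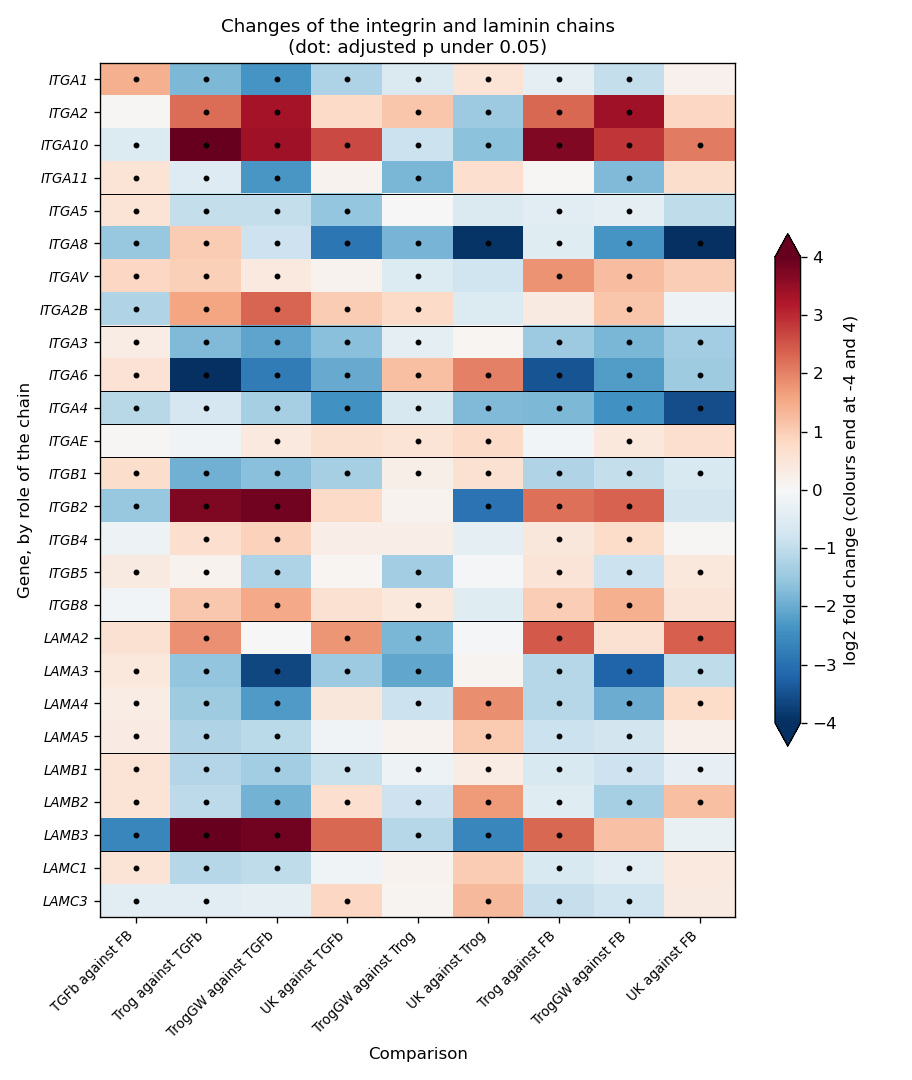
Log2 fold change (colour, from -4 in blue to 4 in red) of 26 tested chains (rows, by role of the chain) in 9 comparisons (columns), with a dot where the adjusted p was under 0.05. ITGA1, ITGB1 and the laminin chains LAMB1 and LAMC1 are red in TGFb against FB and blue in Trog against TGFb, and ITGA2 and ITGA10 are red in Trog and in TrogGW against TGFb.

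2 days of TGFb1 separate TGFb from FB. ITGA1, ITGAV, ITGB1, ITGA11, ITGA5, LAMB1, LAMB2 and LAMC1 were higher with TGFb1, and ITGA8, ITGA4, ITGA10 and ITGA2B were lower. The receptor class for RGD proteins thus held chains of both directions. In the class for collagen the only lower chain was ITGA10, whose call did not hold in every fit. Of 27 tested chains 14 rose and 7 fell, 77.8% in all, where 68.2% of all tested genes changed (32.8% higher, 35.4% lower). The integrin chains counted 8 higher and 5 lower of 17, the laminin chains 6 higher and 2 lower of 10. The median log2 fold change of the chains was 0.34 and that of all tested genes -0.02. With library totals alone the median of all genes was -0.39 and the split of the chains 9 higher and 11 lower. In a fit of all 25 libraries together 7 chains rose and 5 fell, 44.4% in all, beside 38.4% of all tested genes in that fit. The calls of ITGA5, ITGA6, ITGA10, ITGA11, LAMA3, LAMA4, LAMA5, LAMC1 and LAMC3 were lost there. The calls of ITGA10, ITGB2, LAMB3 and LAMC3, all below 3 CPM in both groups, were each lost in at least 1 fit without a library of FB or TGFb.

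Trog against TGFb covers the 3 days in which troglitazone took the place of TGFb1. ITGB1, ITGA1, ITGA3, ITGA6 and the laminin chains LAMA3, LAMA4, LAMA5, LAMB1, LAMB2 and LAMC1 fell, while ITGA10, ITGA2, ITGA8 and ITGAV rose. Of 27 tested chains 11 rose and 14 fell, 92.6% in all, beside 81.7% of all tested genes (42.5% higher, 39.3% lower). The integrin chains counted 9 higher and 7 lower of 17 and the laminin chains 2 higher (LAMA2 and LAMB3) and 7 lower of 10. Their median was -0.47, with 0.05 for all genes. The call of LAMC3 was lost without TGFb replicate 1, 3 or 5 or Trog replicate 2, 3 or 5 and turned to 0.21 (adjusted p = 0.342) with library totals alone. Such totals moved the median of all genes to 0.73 and the split to 13 higher and 11 lower.

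In TrogGW against TGFb 10 of 27 tested chains rose and 15 fell, 92.6% in all, beside 85.7% of all tested genes (46.1% higher, 39.6% lower). The largest rises at 10 CPM or more were those of ITGA10, ITGA2 and ITGB8, and the largest falls those of LAMA3, ITGA6 and ITGA1. The median of the chains was -0.94 and that of all genes 0.08, which library totals alone moved to -0.08 and 0.94, with a split of the chains of 12 higher and 13 lower. The effect of GW9662 on top of troglitazone is the direct comparison of TrogGW with Trog, at the same dose of troglitazone and the same day. There 7 chains rose and 14 fell, 77.8% in all, beside 69.5% of all tested genes (34.3% higher, 35.2% lower), with a median of -0.21 for the chains and 0.00 for all genes. ITGA2, ITGA6 and ITGB8 were higher with GW9662, and LAMA3, ITGA8, ITGA11, ITGB5 and LAMA4 were lower. Library totals alone moved the split to 11 higher and 13 lower. They also moved the median of all genes to 0.18, with 5178 of the 10699 tested genes higher and 2415 lower. In the fit of all 25 libraries the calls of ITGAV, ITGB8 and ITGB1 in TrogGW against Trog were lost (adjusted p = 0.17, 0.117 and 0.136). That fit called 43.6% of all tested genes in this comparison.

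In UK against TGFb 5 of 27 tested chains rose and 9 fell, 51.9% in all, beside 32.1% of all tested genes (16.9% higher, 15.2% lower). Without UK replicate 5, 11 rose and 9 fell, 74.1% in all, beside 70.7% (36% higher, 34.7% lower). ITGA8, ITGA4, ITGA6 and ITGA3 fell and LAMB2 and ITGA10 rose in both. In UK against Trog, 9 chains rose and 6 fell, 55.6% in all, beside 42.6% of all tested genes (22.5% higher, 20.1% lower), and 12 rose and 8 fell without UK replicate 5, 74.1% in all, beside 73.6% (36.7% higher, 36.9% lower). Of the 10 laminin chains 5 were higher and 1 was lower in UK than in Trog, and 7 and 1 without UK replicate 5. Library totals alone moved the split of UK against Trog to 5 higher and 11 lower and the median of all genes from 0.04 to -0.42.

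Levels at day 5 were also set beside FB. In Trog 9 chains were higher and 14 lower than in FB, 85.2% in all, beside 81.9% of all tested genes (41.1% higher, 40.8% lower). In TrogGW 9 were higher and 16 lower, 92.6% in all, beside 85.2% (43.3% higher, 41.9% lower). ITGAV, ITGA2, ITGA10 and ITGB8 were above FB in both, and ITGA6, ITGA4, ITGB1, ITGA3, LAMA3 and LAMA4 below. In UK 5 were higher and 7 lower, 44.4% in all, beside 39.7% of all tested genes (20.3% higher, 19.4% lower), and 14 higher and 8 lower without UK replicate 5, 81.5% in all, beside 77.2% (38.4% higher, 38.7% lower). With library totals alone the split was 11 higher and 13 lower in Trog, 11 and 13 in TrogGW, and 3 and 7 in UK. Of all 10699 tested genes that setting gave 5903 higher and 3051 lower in Trog, 6630 and 2605 in TrogGW, and 1740 and 2580 in UK. The comparisons with FB share its libraries with each other and with TGFb against FB.

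Genes that work with these chains were counted from lists, beside shares of all tested genes of 32.8% higher and 35.4% lower in TGFb over FB, 42.5% and 39.3% in Trog against TGFb, 46.1% and 39.6% in TrogGW against TGFb, and 16.9% and 15.2% in UK against TGFb (36% and 34.7% without UK replicate 5). Of 31 tested genes of the integrin adhesion complex, 19 rose and 8 fell in TGFb over FB, 6 rose and 23 fell in Trog against TGFb, 3 rose and 26 fell in TrogGW against TGFb, and 1 rose and 15 fell in UK against TGFb (5 and 22 without UK replicate 5). With library totals alone these were 9 and 13, 15 and 16, 13 and 16, and 2 and 14. Over all 10699 tested genes library totals alone gave 1445 higher and 6884 lower in TGFb over FB. In the same setting they gave 7693 and 1752 in Trog, 8117 and 1615 in TrogGW, and 2984 and 1098 in UK, each against TGFb. LIMS2, an adaptor that joins integrin-linked kinase to actin, rose in TGFb (1.18 ± 0.0509) and fell from there in Trog (-3.04 ± 0.0584) and TrogGW (-4.22 ± 0.0567).

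Of 21 tested integrin ligands of the matrix, 16 rose and 3 fell in TGFb over FB, 1 rose and 19 fell in Trog against TGFb, 3 rose and 18 fell in TrogGW, and 1 rose and 11 fell in UK (3 and 15 without UK replicate 5). With library totals alone these were 12 and 6, 2 and 18, 3 and 18, and 2 and 9, to be read beside the counts over all genes given above for that setting. TNC, which encodes tenascin C, a ligand of several RGD-binding integrins and of the ITGA9 receptor, rose in TGFb (4.38 ± 0.0735), and COL3A1, a fibrillar collagen, fell in Trog from TGFb (-7.30 ± 0.146). SPP1, the RGD protein osteopontin, rose in TGFb over FB (4.09 ± 0.0651).

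Of 21 tested partners of laminin in basement membranes, 14 rose and 5 fell in TGFb over FB, 1 rose and 18 fell in Trog against TGFb, 1 rose and 20 fell in TrogGW, and 4 rose and 5 fell in UK (11 and 8 without UK replicate 5). With library totals alone these were 11 and 8, 3 and 15, 4 and 16, and 7 and 3, again beside the counts over all genes given above for that setting. DAG1, which encodes the laminin receptor dystroglycan, rose in TGFb (1.29 ± 0.053) and fell from there in TrogGW (-1.87 ± 0.0613). COL15A1, a basement membrane collagen, fell from TGFb in Trog (-4.13 ± 0.0657) and TrogGW (-4.93 ± 0.175). In UK against Trog 13 of these partners rose and 1 fell, where 22.5% of all tested genes rose and 20.1% fell. With library totals alone the partners counted 11 and 1, where 1289 of the 10699 tested genes rose and 4087 fell. Without UK replicate 5 the partners counted 20 and 1, where 36.7% of all tested genes rose and 36.9% fell.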

How the data were processed

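Stranded TruSeq libraries of polyadenylated RNA were sequenced for 25 samples, per the labels' protocols. Tools named in the submitters' processing notes are Salmon 1.5.2, featureCounts, Subread 2.0.1, STAR 2.7.9a and fastp 0.23.1. The build, the annotation and the strand setting are not given in the sources used here. For each sample the authors deposited a table of raw read counts of 13949 gene symbols. Samples were grouped by their labels.

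These counts were tested with edgeR 4.0.16 (R 4.3.3). TMM factors and the expression filter (minimum count 10, minimum total 15) came from all 25 libraries and left 10699 genes. Each comparison was fitted on the libraries of its 2 groups with the quasi-likelihood F test, without a block for replicate number, with Benjamini-Hochberg adjustment over all tested genes. SE is the size of the log2 fold change divided by the root of F. CPM were computed from counts and TMM-scaled totals. Groups with 1 to 3 counts of a gene were given a ratio with a 95% counting interval, and a group with 0 counts a floor of 3 counts. The code was tested on simulated data. Replicate libraries differed by more than counting noise (chi-square per degree of freedom at least 3.20), so none was counted as a repeat.

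Values in every library are given for ITGA11 and for the 3 largest rises and 3 largest falls of each of 6 comparisons among called chains that did not overlap and averaged 10 CPM or more in the higher group. Members, gene lists, this rule and the fit by 2 groups were chosen with earlier results of these data known. Alternatives were DESeq2 1.42.0, limma voom (limma 3.58.1), RLE size factors, library totals alone, a stricter filter and none, fits of all 25 libraries and of the 24 without UK replicate 5, a replicate block, and each library left out in turn. RefSeq (assembly F.catus_Fca126_mat1.0) held all 34 chain genes and served for names and neighbours. Of the tested chains 1 enters the counts but is not reported here by name or value. Figures were drawn with matplotlib 3.10.9.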

Additional observations from a re-analysis of the deposited data

Results flagged for a closer look

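The levels of 14 chains with values given in every library were examined in 5 groups for a library far from the others. The chains were chosen with earlier results known and share the same libraries, so no rate by chance is set beside the count. Of 70 group levels 9 held such a library. In 4 of these the library was UK replicate 5, the lowest of its group: ITGA11 was at 23.4 CPM there and next at 259, ITGAV at 40.8 and next at 408, ITGB1 at 826 and next at 1403, and LAMA4 at 146 and next at 414. TrogGW replicate 1 was the highest of its group for LAMA3, at 20.5 CPM with the next at 13.3, and for LAMA4, at 83 CPM with the next at 53.6. Trog replicate 1 was the highest of its group for ITGA10 (29.1 CPM, next 25.6), Trog replicate 2 the lowest for ITGB1 (817 CPM, next 899), and FB replicate 4 the highest for ITGAV (209 CPM, next 177). The causes were not tested.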

How the results depend on the processing

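Of 181 called changes of chains, 160 kept their direction and call with library totals alone, 160 in a fit of all 25 libraries, 181 in a fit of 24 libraries without UK replicate 5, 180 with RLE size factors, 177 with DESeq2, 176 with limma voom, 177 with no filter and 144 of 145 with a stricter filter. Of 1810 values with 1 library left out, 1732 kept both. Library totals alone turned 10 called changes. They gave -0.01 for ITGB5, -0.09 for LAMA4, -0.04 for LAMA5 and -0.08 for ITGA3 in TGFb against FB, 0.16 for ITGA11 and 0.21 for LAMC3 in Trog against TGFb, 0.04 for ITGA8 in TrogGW against TGFb, -0.17 for LAMB1 in UK against Trog, and 0.09 for ITGA5 and 0.03 for LAMC1 in TrogGW against FB. Of values not called in UK against TGFb, ITGAV turned to -0.23 with limma voom and -0.10 with the replicate block, ITGA11 to -0.24 and -0.13, and LAMC1 to 0.13 with library totals alone and to 0.15 both in a fit of 24 libraries and without UK replicate 5. Over fits without 1 library LAMC1 ranged from -0.26 to 0.15 there. The number of changed chains moved by over 1.5 times in TGFb against FB, from 21 to 12 in a fit of all 25 libraries. The share of all tested genes called moved there from 68.2% to 38.4%. In UK against FB the chains went from 12 to 21 in a fit of 24 libraries and 22 without UK replicate 5. All tested genes went from 39.7% to 77.8% and 77.2%. Over fits without 1 library the number of changed chains was 10 to 22 in UK against FB and 13 to 20 in UK against TGFb. It was 11 to 20 in UK against Trog and 18 to 20 in TGFb against FB.

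Replicate numbers showed no general pairing of the libraries: same-numbered deviations correlated above 0.1 in 0 to 2 of 5 pairs per comparison, and 0 to 2 libraries correlated best with their own number. Deviations were taken from the mean of all 5 libraries of a group. In UK that mean is shaped by replicate 5, so the check says little there. UK replicate 4 correlated best with its own number against Trog (0.328) and FB (0.248). With the replicate block 172 of 181 called changes kept direction and call, and the changed chains were 20 in TGFb against FB, 24 in Trog against TGFb, 25 in TrogGW against TGFb, 13 in UK against TGFb, 21 in TrogGW against Trog, 11 in UK against Trog, 23 in Trog against FB, 25 in TrogGW against FB and 10 in UK against FB. Depth limits chains below about 1 CPM, whose calls rest on few counts.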

Other observations

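Some chain genes are neighbours on the chromosome in RefSeq. ITGA2 and ITGA1 are adjacent, and ITGA2 rose by 2.23 ± 0.118 in Trog against TGFb while ITGA1 stood at -1.79 ± 0.0594, on the log2 scale. LAMB4, next to LAMB1, had 0 counts in TGFb, Trog, TrogGW and UK.

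ITGB3BP, the centromere protein gene set aside above, averaged 2.77 ± 0.251 CPM in FB (SD, n = 5), 0.893 ± 0.123 in TGFb, 0.686 ± 0.221 in Trog, 1.74 ± 0.427 in TrogGW and 1.02 ± 0.395 in UK. It fell in TGFb from FB (-1.63 ± 0.181, edgeR adjusted p = 1.57e-08) and was higher in TrogGW than in Trog (1.34 ± 0.243, edgeR adjusted p = 0.000148).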
